A study of Mus musculus with 8 samples.

Results

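The genes followed here through T-lineage commitment, in mouse progenitors given guides against Stat5a and Stat5b or control guides, were the interferon receptor chains Ifnar1, Ifnar2, Ifngr1 and Ifngr2, the shared cytokine receptor chain Il6st (gp130), its partner chains Il6ra and Il27ra, the IL-10 receptor chain Il10ra, and the gp130 ligands Lif and Osm. They were taken by symbol from the count table and are 10 of its 24506 symbols. All 10 passed the filter on low counts that left 13775 genes for testing. RNA was sequenced in bulk in 8 libraries, 4 groups of 2. Bone-marrow progenitors from B6 mice carrying Cas9, Bcl2 and the Bcl11b-mCherry reporter were held overnight with IL-7, Flt3l and SCF and infected with retrovirus. They were then kept for 6 days, with 10 ng/ml each of IL-7 and Flt3l, on OP9-DLL1 cells, a stromal line that shows a Notch ligand. The groups were post-commitment cells (CD25+ mCherry+) with sgStat5 (3 guides against Stat5a and 3 against Stat5b), post-commitment cells with control guides, pre-commitment cells (CD25+ mCherry-) with sgStat5 and pre-commitment cells with control guides. All sorted cells were Lin- and positive for the infection marker. Every group therefore carries Cas9 and the survival gene Bcl2, and each library was made from a sorted pool of infected cells. The series text calls the mCherry+ cells reporter negative in one place. What the control guides target and the age of the mice are not given in the sources used here.

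Total counts ran from 22146490 to 31209177 per library. Values are CPM, read counts scaled to library size with the TMM method of edgeR. Stat5a had 116 and 107 CPM in post-commitment sgStat5 cells against 257 and 238 CPM in post-commitment control cells, and 106 and 105 CPM in pre-commitment sgStat5 cells against 258 and 257 CPM in pre-commitment control cells. Stat5b had 154 and 135 CPM in post-commitment sgStat5 cells against 280 and 255 CPM in post-commitment control cells, and 144 and 133 CPM in pre-commitment sgStat5 cells against 255 and 249 CPM in pre-commitment control cells. Both targeted genes were thus lower in every sgStat5 library of both gates, but their RNA remained in these pools, and protein was not analysed here. Bcl11b, the gene behind the reporter, had 797 and 415 CPM in post-commitment sgStat5 cells against 132 and 70.1 CPM in pre-commitment sgStat5 cells, and 542 and 219 CPM in post-commitment control cells against 132 and 45.6 CPM in pre-commitment control cells. Replicate 1 lay above replicate 2 in all 4 groups for Bcl11b, and the post-commitment library was the higher one in each pair of the same guides and replicate number. T progenitor markers were detected throughout, with none of 12 at 0 in any group.

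Type I interferons bind a receptor of the IFNAR1 and IFNAR2 chains, which works through the kinases TYK2 and JAK1. Interferon gamma binds IFNGR1, and its receptor signals with IFNGR2 through JAK1 and JAK2. The gp130 chain is shared by receptors for IL-6 (with IL6RA), IL-27 (with IL27RA), LIF (with LIFR) and oncostatin M, and it signals mainly through STAT3. IL-10 binds IL10RA, which pairs with IL10RB and also uses STAT3. STAT5, the pair of factors targeted here, is the main STAT used by the IL-7 receptor that these cultures depend on.

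Several of these genes are neighbours in the genome (mm10, coordinates from 1). Ifnar2 (chr16:91372783-91405587), Il10rb (chr16:91406235-91425834), Ifnar1 (chr16:91485215-91510522) and Ifngr2 (chr16:91547094-91564007) lie on the same strand of chromosome 16 in that order, with 647, 59380 and 36571 bases between them. Osm (chr11:4236785-4241026) and Lif (chr11:4266796-4272514) lie 25769 bases apart on the plus strand of chromosome 11, measured to the counted Lif transcript. Another Lif transcript starts at 4257568, nearer to Osm. Ifngr1 (chr10:19591949-19610227, plus strand), Il6st (chr13:112464070-112506860, plus strand), Il6ra (chr3:89869324-89913196, minus strand), Il27ra (chr8:84030286-84042575, minus strand) and Il10ra (chr9:45253837-45269149, minus strand) lie alone.

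Promoters were read from RefSeq (GRCm38.p6) for the 250 bases before each start and searched on both strands for the STAT dimer motif TTCNNNGAA, its wider form with 4 free bases between TTC and GAA, and an interferon response motif of 2 GAAA runs with 2 free bases between them. The table held 7 of the 10 genes, and Il27ra, Il10ra and Osm were not among them. Ifnar2 holds 1 TTCNNNGAA, starting 214 bases before its start, a motif present in 7.02% of 32851 promoters of this length. Ifngr2 holds 1 copy of the wider form, starting 91 bases before its RefSeq start, a motif present in 5.85% of them. Ifnar1, Ifngr1, Il6st, Il6ra and Lif hold none of the 3 motifs in this window, and the interferon response motif is in 2.98% of promoters. The window read for Lif, chr11:4257318-4257567, precedes a transcript that starts farther upstream than the one counted. The 2 promoters with a match are shown with the match in capitals, followed by those of Ifngr1 and Il6st, whose RNA differed between sgStat5 and control cells in both gates in the fit with a replicate block (given with the results) and which hold no match. Lif also meets both conditions, and its window is not shown. All 4 shown are plus-strand sequences, at chr16:91372533-91372782 (Ifnar2), chr16:91546809-91547058 (Ifngr2), chr10:19591699-19591948 (Ifngr1) and chr13:112463820-112464069 (Il6st). A match is a run of letters and no measure of binding.
Ifnar2 promoter: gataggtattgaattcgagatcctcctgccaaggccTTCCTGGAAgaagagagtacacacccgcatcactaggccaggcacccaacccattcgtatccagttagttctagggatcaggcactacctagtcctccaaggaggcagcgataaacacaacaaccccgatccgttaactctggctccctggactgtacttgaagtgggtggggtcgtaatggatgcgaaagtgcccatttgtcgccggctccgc
Ifngr2 promoter: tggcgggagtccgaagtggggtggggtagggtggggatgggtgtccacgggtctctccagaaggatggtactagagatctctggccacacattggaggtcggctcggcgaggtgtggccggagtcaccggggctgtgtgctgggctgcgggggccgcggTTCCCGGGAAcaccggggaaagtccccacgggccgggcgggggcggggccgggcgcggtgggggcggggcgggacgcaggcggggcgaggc
Ifngr1 promoter: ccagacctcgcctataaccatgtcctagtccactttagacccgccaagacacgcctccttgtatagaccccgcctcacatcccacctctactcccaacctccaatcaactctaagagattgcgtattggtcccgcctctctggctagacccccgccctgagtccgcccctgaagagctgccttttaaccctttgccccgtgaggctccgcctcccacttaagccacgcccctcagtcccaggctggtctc
Il6st promoter: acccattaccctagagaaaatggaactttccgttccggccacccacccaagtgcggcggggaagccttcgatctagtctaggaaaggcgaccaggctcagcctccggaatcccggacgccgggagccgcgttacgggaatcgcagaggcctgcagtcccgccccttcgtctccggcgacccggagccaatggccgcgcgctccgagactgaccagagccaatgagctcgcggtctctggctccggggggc

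Levels of different genes were compared as CPM per kilobase of the counted transcript. Ifngr1 was the most abundant of the 10 in all 4 groups. It averaged 92.8 ± 15.2 CPM per kilobase in post-commitment sgStat5 cells, 170 ± 44.2 in post-commitment control cells, 38.2 ± 2.54 in pre-commitment sgStat5 cells and 61.6 ± 5.81 in pre-commitment control cells (SD, n = 2 each). Ifnar2 came second in every group, at 33.3 ± 2.78, 28.0 ± 4.97, 24.2 ± 0.709 and 20.6 ± 1.12 CPM per kilobase in the same order of groups (SD, n = 2 each). Neither of these ranks overlapped with the next in any group. Il6ra was last in every group, below 0.3 CPM per kilobase in each library.

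The middle of the order differed between groups. In post-commitment sgStat5 cells Il27ra was the third, at 18.9 ± 4.49 CPM per kilobase, and its libraries overlapped with those of Ifnar1 at 16.4 ± 3.81. Next came Lif at 13.0 ± 0.812, Il6st at 11.2 ± 2.27 and Il10ra at 8.30 ± 2.05, each overlapping with its neighbour, and then Ifngr2 at 6.63 ± 0.246 and Osm at 6.59 ± 0.118, which also overlapped. In post-commitment control cells Lif was the third at 21.4 ± 0.983, and Ifnar1 at 14.6 ± 3.99, Il10ra at 13.8 ± 2.16, Osm at 12.1 ± 2.85 and Il27ra at 11.6 ± 1.62 overlapped from one to the next. Ifngr2 at 8.64 ± 0.311 and Il6st at 7.48 ± 0.885 followed without overlap (SD, n = 2 for each value).

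In pre-commitment sgStat5 cells Lif at 10.5 ± 2.09, Ifnar1 at 10.0 ± 0.445, Il10ra at 9.36 ± 1.37 and Osm at 8.95 ± 0.257 CPM per kilobase overlapped from one to the next. Il27ra at 7.78 ± 0.477, Il6st at 5.27 ± 0.437 and Ifngr2 at 4.09 ± 0.201 followed without overlap. In pre-commitment control cells the order ran Lif at 16.1 ± 0.804, Osm at 12.8 ± 0.895, Il10ra at 12.2 ± 0.777, Ifnar1 at 9.23 ± 0.546, Il27ra at 6.11 ± 0.124, Ifngr2 at 4.57 ± 0.137 and Il6st at 3.03 ± 0.0140. Of these neighbours only Osm and Il10ra overlapped. The gp130 chain was thus the lowest of the 9 genes other than Il6ra in both control groups, the sixth of 10 in post-commitment sgStat5 cells and the eighth in pre-commitment sgStat5 cells (SD, n = 2 for each value).

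**Figure D1:**
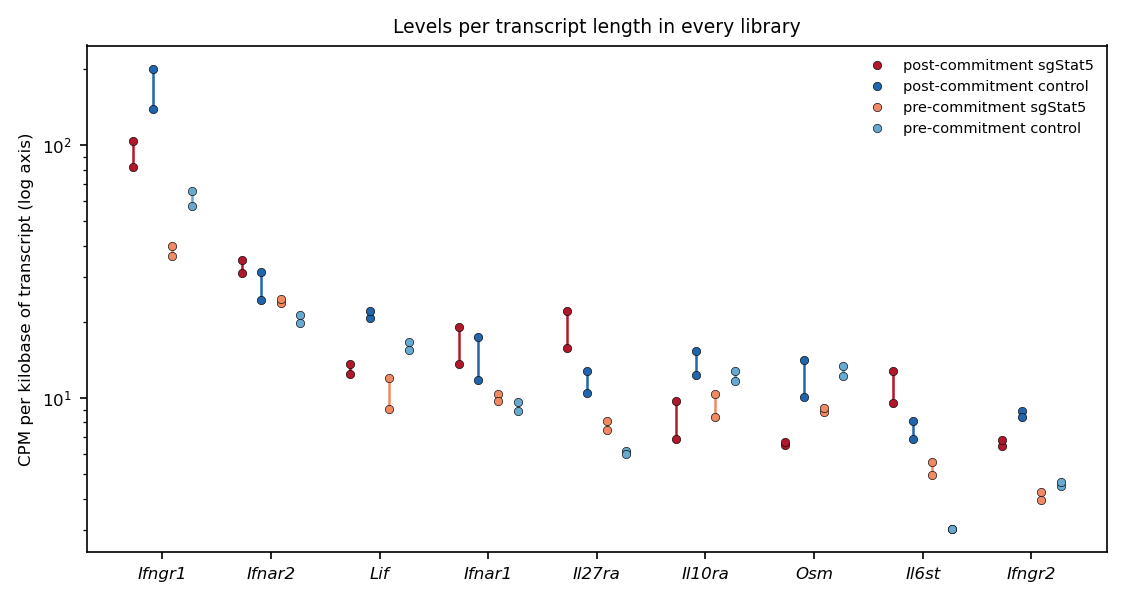
CPM per kilobase of transcript (log axis) for 9 genes in each of the 8 libraries, with a line joining the 2 libraries of a group. Ifngr1 lies above every other gene in all 4 groups, and Il6st moves up relative to Ifngr2 in the sgStat5 groups. Il6ra is not drawn because it was at or near 0.

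Comparisons used edgeR's quasi-likelihood test on all 8 libraries, with p adjusted by the Benjamini-Hochberg method over the 13775 genes and called below 0.05. Libraries of the same replicate number deviated together (correlations of 0.421 to 0.578 over 6 pairs of groups), so the fit with the replicate number as a block is given beside the fit without it wherever a call differs. The labels do not say whether replicates were separate cultures or animals, and a p-value then reflects nothing but how far these libraries spread. In bulk RNA, fewer cells that express a gene and less RNA per cell cannot be told apart.

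In post-commitment cells the fit without the block called none of the 10 genes between sgStat5 and control cells, where it called 1.71% of all genes (edgeR), although 7 of the 10 had an unadjusted p below 0.05, against 12.4% of all genes, and DESeq2 called 4, against 4.57%. With the replicate block 6 of 10 were called, against 8.22% of all genes. Il6st and Il27ra rose (2 of 10, against 3.72% of all genes) and Ifngr1, Il10ra, Lif and Osm fell (4 of 10, against 4.49%). In pre-commitment cells the fit without the block also called none, against 0.269% of all genes, with 4 of the 10 at an unadjusted p below 0.05, against 6.44% of all genes, and 3 called by DESeq2, against 1.79%. The blocked fit called 3, against 2.33% of all genes: Il6st rose, and Ifngr1 and Lif fell. The sgStat5 libraries did not overlap with the control libraries for 8 of 10 genes in post-commitment cells, against 38.9% of all genes, and for 9 of 10 in pre-commitment cells, against 38.1%. The 8 include Il6ra, which was apart there by no more than a scaled difference between 3 counts and 3 counts. Of the blocked calls only that of Ifngr1 in post-commitment cells held in all 8 fits that left out 1 library. In post-commitment cells 1 gene was called without sgStat5 replicate 1, 4 without sgStat5 replicate 2, 3 without control replicate 1 and 2 without control replicate 2 of that gate. In pre-commitment cells, none was called without sgStat5 replicate 1 or control replicate 1, 2 without sgStat5 replicate 2 or control replicate 2, and 1 without post-commitment sgStat5 replicate 1 or 2.

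**Figure D2:**
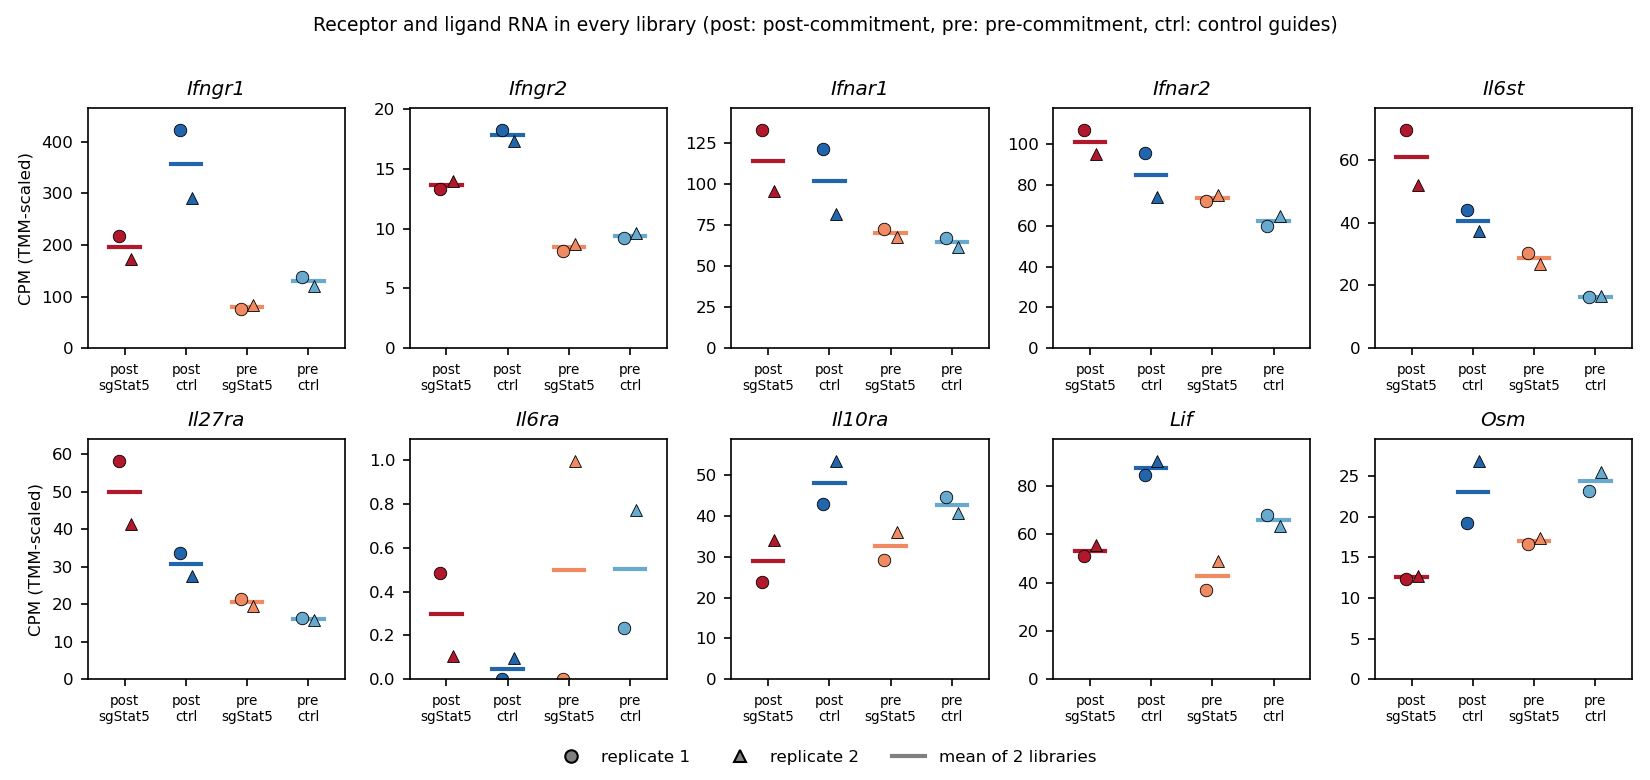
CPM of each of the 10 genes in every library (circles, replicate 1; triangles, replicate 2; bars, mean of 2), each on its own axis from 0, with post-commitment sgStat5 and control cells at the left and pre-commitment sgStat5 and control cells at the right of each panel. Ifngr1, Lif and Osm lie lower, and Il6st and Il27ra higher, in both sgStat5 libraries than in both control libraries of either gate.

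Ifngr1, the ligand-binding chain of the interferon gamma receptor, had 218 and 172 CPM in post-commitment sgStat5 cells against 423 and 292 CPM in post-commitment control cells. In pre-commitment cells it had 76.5 and 84.0 CPM with sgStat5 against 138 and 121 CPM with control guides. In each gate the higher sgStat5 library was below the lower control library. The log2 fold change was -0.87 ± 0.19 in post-commitment cells (SE, adjusted p = 0.0950, 0.00470 with the block) and -0.69 ± 0.19 in pre-commitment cells (SE, adjusted p = 0.405, 0.0378 with the block).

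Ifngr2, the second chain of the same receptor, had 13.3 and 14.0 CPM in post-commitment sgStat5 cells against 18.3 and 17.4 CPM in post-commitment control cells. In pre-commitment cells it had 8.13 and 8.72 CPM with sgStat5 against 9.21 and 9.61 CPM with control guides. It was lower in every sgStat5 library but passed the threshold in neither fit. Its log2 fold change was -0.38 ± 0.16 in post-commitment cells (SE, adjusted p = 0.383) and -0.16 ± 0.16 in pre-commitment cells (SE, adjusted p = 0.998, 95% interval -0.53 to 0.21). Per length, the ratio of Ifngr1 to Ifngr2 was 16.0 and 12.1 in post-commitment sgStat5 cells against 22.7 and 16.5 in post-commitment control cells, and 9.22 and 9.46 in pre-commitment sgStat5 cells against 14.7 and 12.3 in pre-commitment control cells. In each gate the sgStat5 ratios lay below the control ratios.

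The type I interferon receptor chains did not pass the threshold in either gate or either fit. Ifnar1 had 133 and 95.7 CPM in post-commitment sgStat5 cells against 122 and 82.1 CPM in post-commitment control cells, and 72.5 and 68.1 CPM in pre-commitment sgStat5 cells against 67.3 and 61.9 CPM in pre-commitment control cells. The libraries overlapped after commitment and, narrowly, did not before it. The log2 fold change was 0.17 ± 0.21 in post-commitment cells (SE, adjusted p = 0.831, 95% interval -0.34 to 0.67) and 0.12 ± 0.22 in pre-commitment cells (SE, adjusted p = 1, interval -0.39 to 0.63). Ifnar2 had 107 and 95.1 CPM in post-commitment sgStat5 cells against 95.5 and 74.1 CPM in post-commitment control cells, and 72.0 and 75.0 CPM in pre-commitment sgStat5 cells against 60.1 and 64.9 CPM in pre-commitment control cells. Its groups again overlapped only after commitment. The log2 fold change was 0.25 ± 0.14 in post-commitment cells (SE, adjusted p = 0.530, interval -0.07 to 0.58) and 0.23 ± 0.14 in pre-commitment cells (SE, adjusted p = 0.910, interval -0.09 to 0.56). The intervals reach 0.67 for Ifnar1 and 0.58 for Ifnar2 in post-commitment cells and do not show that the type I receptor was unaffected.

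Il6st, the signal-transducing gp130 chain, had 69.6 and 52.1 CPM in post-commitment sgStat5 cells against 44.0 and 37.2 CPM in post-commitment control cells. In pre-commitment cells it had 30.3 and 26.9 CPM with sgStat5 against 16.4 and 16.5 CPM with control guides. All sgStat5 libraries lay above the control libraries of their gate. The log2 fold change was 0.58 ± 0.17 in post-commitment cells (SE, adjusted p = 0.213, 0.0238 with the block) and 0.80 ± 0.17 in pre-commitment cells (SE, adjusted p = 0.217, 0.0165 with the block).

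Il27ra, which pairs with gp130 to bind IL-27, had 58.3 and 41.5 CPM in post-commitment sgStat5 cells against 33.7 and 27.7 CPM in post-commitment control cells. In pre-commitment cells it had 21.4 and 19.7 CPM with sgStat5 against 16.4 and 15.9 CPM with control guides. The groups did not overlap in either gate. The log2 fold change was 0.70 ± 0.19 in post-commitment cells (SE, adjusted p = 0.169, 0.0162 with the block) and 0.35 ± 0.19 in pre-commitment cells (SE, adjusted p = 0.887, 0.353 with the block). Per length, Il6st stood at 0.581 and 0.611 of Il27ra in post-commitment sgStat5 cells against 0.635 and 0.654 in post-commitment control cells, and at 0.687 and 0.666 in pre-commitment sgStat5 cells against 0.487 and 0.505 in pre-commitment control cells. The ratio was below the control in post-commitment cells and above it in pre-commitment cells.

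Il6ra, the IL-6 binding chain, was at or near 0 in all groups. It had 11 and 3 counts in post-commitment sgStat5 cells, 0 and 3 in post-commitment control cells, 0 and 27 in pre-commitment sgStat5 cells and 6 and 24 in pre-commitment control cells. The highest library reached 0.997 CPM. Replicates of one group differed by as much as the groups did, so no fold change is read for it. Its fold changes appear only among the checks on processing below.

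Il10ra, the IL-10 binding chain, had 23.9 and 34.0 CPM in post-commitment sgStat5 cells against 42.8 and 53.5 CPM in post-commitment control cells. Before commitment it had 29.3 and 36.1 CPM with sgStat5 against 44.6 and 40.7 CPM with control guides. Every sgStat5 library lay below the control libraries of its gate. The log2 fold change was -0.73 ± 0.21 in post-commitment cells (SE, adjusted p = 0.201, 0.0182 with the block) and -0.38 ± 0.21 in pre-commitment cells (SE, adjusted p = 0.887, 0.309 with the block). Its partner chain Il10rb, the neighbour of Ifnar2 on chromosome 16, had 18.9 and 16.5 CPM in post-commitment sgStat5 cells against 30.6 and 21.3 CPM in post-commitment control cells, and 13.2 and 9.90 CPM in pre-commitment sgStat5 cells against 19.4 and 17.0 CPM in pre-commitment control cells. These groups did not overlap either, at log2 fold changes of -0.55 ± 0.23 in post-commitment cells (SE, adjusted p = 0.385, 0.0666 with the block) and -0.65 ± 0.23 in pre-commitment cells (SE, adjusted p = 0.625, 0.0720 with the block).

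With the replicate block Lif fell with sgStat5 in both gates and Osm in post-commitment cells, while neither ligand passed the threshold without it and Osm passed in neither fit in pre-commitment cells. Lif, a secreted gp130 cytokine, had 50.9 and 55.6 CPM in post-commitment sgStat5 cells against 84.8 and 90.5 CPM in post-commitment control cells. Before commitment it had 36.9 and 49.1 CPM with sgStat5 against 68.1 and 63.5 CPM with control guides. All sgStat5 libraries lay below the control libraries of their gate, and the log2 fold change was -0.72 ± 0.15 in post-commitment cells (SE, adjusted p = 0.0802, 0.00689 with the block) and -0.61 ± 0.15 in pre-commitment cells (SE, adjusted p = 0.290, 0.0355 with the block). Osm, the related cytokine oncostatin M, had 12.4 and 12.7 CPM in post-commitment sgStat5 cells against 19.2 and 26.9 CPM in post-commitment control cells, and 16.7 and 17.4 CPM in pre-commitment sgStat5 cells against 23.1 and 25.6 CPM in pre-commitment control cells. It too was lower in each sgStat5 library, at -0.88 ± 0.18 in post-commitment cells (SE, adjusted p = 0.0789, 0.0112 with the block) and -0.52 ± 0.18 in pre-commitment cells (SE, adjusted p = 0.626, 0.192 with the block). Lif and Osm are the 2 neighbours on chromosome 11, while the 3 genes of the set on chromosome 16 had values of both signs. The receptor chains that pair with gp130 for these ligands were low. Lifr had 2.48 and 4.77 CPM in post-commitment sgStat5 cells, 1.91 and 2.07 in post-commitment control cells, 0.899 and 1.26 in pre-commitment sgStat5 cells and 2.16 and 0.996 in pre-commitment control cells, with no call in any comparison. Osmr had 0.0442 and 2.19, 0.0383 and 1.48, 0 and 2.18, and 0 and 0.900 CPM in the same order of groups, so that replicate 2 was the higher in all 4.

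**Figure D3:**
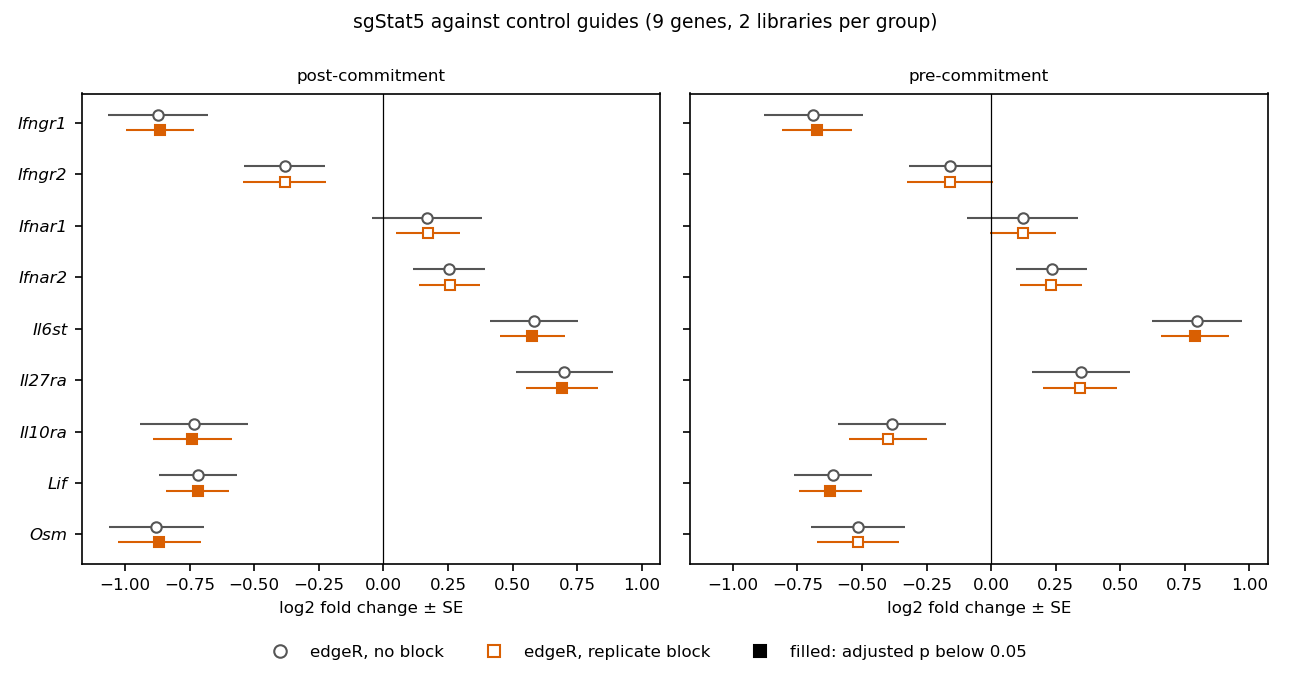
Log2 fold change of sgStat5 over control with its SE for 9 genes, in post-commitment cells at the left and pre-commitment cells at the right (2 libraries per group). Circles are the edgeR fit without a block, squares the fit with the replicate block, and filled symbols passed an adjusted p of 0.05. Ifngr1, Ifngr2, Il10ra, Lif and Osm lie below 0 and Ifnar1, Ifnar2, Il6st and Il27ra above 0 in both panels.

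The sgStat5 effects were not shown to differ between the gates. The effect in post-commitment cells minus that in pre-commitment cells, on the log2 scale, was 0.35 ± 0.27 for Il27ra, -0.36 ± 0.26 for Osm and -0.35 ± 0.29 for Il10ra, the 3 genes of largest size after Il6ra (SE). For Ifngr2, Il6st, Ifngr1 and Lif it was -0.22, -0.21, -0.19 and -0.11, and for Ifnar1 and Ifnar2 0.05 and 0.02. Neither fit of edgeR called any of the 10 genes, nor any gene at all (0% of all genes tested), and DESeq2 called 2 of all genes (0.0145%), none of them in the set. None of the 10 had an unadjusted p below 0.05, against 302 of all genes (2.19%). Calls made for Il27ra, Il10ra and Osm after commitment but not before it do not show an effect specific to that stage.

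Between the gates, Ifnar1, Ifngr1, Ifngr2, Il6st and Il27ra were higher after commitment in both arms in the fit with the block, and Ifnar2 in sgStat5 cells. Il10ra was called in neither arm, and Il6ra was at or near 0. In sgStat5 cells edgeR without the block called 3 of 10 genes, against 0.973% of all genes. All 3 were higher after commitment, against 0.661% of all genes. With the block 6 of 10 were called, against 22.8%, and all 6 were higher, against 11.3%. In control cells the fit without the block called none, against 0.0145% of all genes, with 7 of the 10 at an unadjusted p below 0.05, against 14.9% of all genes, and 4 called by DESeq2, against 4.20%. With the block 5 of 10 were called, against 10.9%, and all 5 were higher, against 6.64%. Libraries of the gates did not overlap for 8 of 10 genes in sgStat5 cells, against 56.2% of all genes, and for 8 of 10, Il6ra among them, in control cells, against 48.8%. The 3 calls without the block stood at an adjusted p of 0.0486, close to the threshold, and were lost on leaving out any 1 library other than post-commitment control replicate 1 or 2. With the block, calls of Ifngr1 and Il6st in both arms, and of Il27ra in sgStat5 cells, held in all 8 fits that left out 1 library. The blocked count fell to 3 in sgStat5 cells without replicate 1 of either gate of that arm and to 4 without its post-commitment replicate 2, and to 2 in control cells without replicate 1 of either gate of that arm.

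Ifngr1 had the largest step in control cells among the 9 genes other than Il6ra. Its 218 and 172 CPM in post-commitment sgStat5 cells stood against 76.5 and 84.0 CPM in pre-commitment sgStat5 cells, a log2 fold change of 1.28 ± 0.20 (SE, adjusted p = 0.0486, 0.000651 with the block). In control cells 423 and 292 CPM stood against 138 and 121 CPM, a log2 fold change of 1.47 ± 0.20 (SE, adjusted p = 0.120, 0.000990 with the block). Ifngr1 in post-commitment sgStat5 cells was thus above its level in pre-commitment control cells in every library. Ifngr2 was also higher after commitment in every library, by 0.70 ± 0.16 in sgStat5 cells (SE, adjusted p = 0.0775, 0.0175 with the block) and 0.92 ± 0.16 in control cells (SE, adjusted p = 0.140, 0.0114 with the block).

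With the block Il6st and Il27ra were higher after commitment in both arms, and without it in sgStat5 cells only. Il6st had a log2 fold change of 1.09 ± 0.17 in sgStat5 cells (SE, adjusted p = 0.0486, 0.000951 with the block) and 1.30 ± 0.17 in control cells (SE, adjusted p = 0.120, 0.00121 with the block). For Il27ra it was 1.28 ± 0.19 in sgStat5 cells (SE, adjusted p = 0.0486, 0.000767 with the block) and 0.93 ± 0.19 in control cells (SE, adjusted p = 0.186, 0.00645 with the block). In the CPM given above, neither gene overlapped between the gates in either arm. The highest level of both chains was in post-commitment sgStat5 cells and the lowest in pre-commitment control cells.

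The type I chains had smaller steps than Ifngr1, Il6st and Il27ra in both arms. For Ifnar1 the log2 fold change was 0.70 ± 0.22 in sgStat5 cells (SE, adjusted p = 0.120, 0.00604 with the block) and 0.66 ± 0.22 in control cells (SE, adjusted p = 0.269, 0.0166 with the block). For Ifnar2 it was 0.46 ± 0.14 in sgStat5 cells (SE, adjusted p = 0.116, 0.0252 with the block) and 0.44 ± 0.14 in control cells (SE, adjusted p = 0.258, 0.0508 with the block). Every post-commitment library lay above the pre-commitment libraries of its arm for both chains. Per length, Ifnar2 was 1.85 and 2.29 times Ifnar1 in post-commitment sgStat5 cells, 1.81 and 2.08 times in post-commitment control cells, 2.29 and 2.54 times in pre-commitment sgStat5 cells and 2.06 and 2.42 times in pre-commitment control cells, with overlapping ratios in sgStat5 and control cells of each gate. The size of this ratio depends on the Ifnar2 transcript, of 3034 bases in the counts and 1160 bases in the authors' FPKM values. In FPKM, Ifnar2 averaged 33.7 and Ifnar1 12.2 in post-commitment sgStat5 cells.

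Il10ra and the ligands passed the threshold in neither arm. Il10ra differed by -0.17 ± 0.21 in sgStat5 cells (SE, adjusted p = 0.647) and 0.18 ± 0.21 in control cells (SE, adjusted p = 0.736), with overlapping libraries in both. Lif was higher in all post-commitment libraries of each arm, by 0.31 ± 0.15 in sgStat5 cells (SE, adjusted p = 0.263, 0.0982 with the block) and 0.41 ± 0.15 in control cells (SE, adjusted p = 0.292, 0.0596 with the block). Osm had -0.44 ± 0.18 in sgStat5 cells (SE, adjusted p = 0.202, 0.0815 with the block), with both post-commitment libraries below both pre-commitment ones, and -0.08 ± 0.18 in control cells (SE, adjusted p = 0.874), where the libraries overlapped. Per length, Lif stood at 1.91 and 2.04 times Osm in post-commitment sgStat5 cells against 1.03 and 1.31 times in pre-commitment sgStat5 cells, and at 2.05 and 1.57 times in post-commitment control cells against 1.37 and 1.15 times in pre-commitment control cells.

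**Figure D4:**
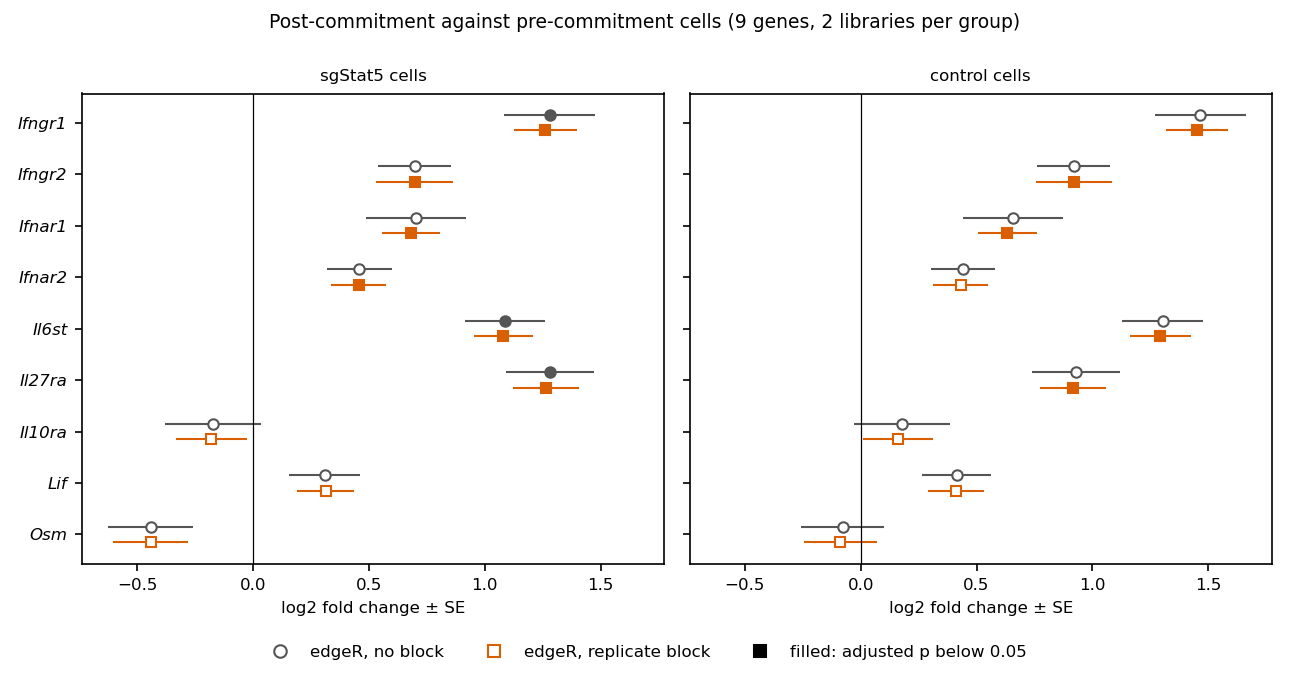
Log2 fold change of post-commitment over pre-commitment cells with its SE for 9 genes, in sgStat5 cells at the left and control cells at the right (2 libraries per group). Symbols are as in the plot of sgStat5 effects. The points of the 4 interferon receptor chains, Il6st and Il27ra lie above 0 in both arms, while Il10ra and Osm lie at or near 0 in control cells.

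Markers of other cells also differed between the gates. Stromal markers summed to 600 to 707 CPM in post-commitment sgStat5 cells and 574 to 716 in post-commitment control cells, against 183 to 361 in pre-commitment sgStat5 cells and 202 to 404 in pre-commitment control cells, with Lum at 0 throughout among 12 markers. Thbs1 and Pdgfrb, singled out here after their values were seen, carried much of these sums. The other 10 stromal markers summed to 167 and 477 CPM in post-commitment sgStat5 cells and 130 and 536 CPM in post-commitment control cells, against 1.48 and 245 CPM in pre-commitment sgStat5 cells and 37.1 and 304 CPM in pre-commitment control cells. Replicate 2 was thus the higher in all 4 groups, and the gates overlapped. NK and ILC markers (10 genes, none at 0 in any group) summed to 106 to 170 and 96.8 to 221 CPM in post-commitment sgStat5 and control cells, against 317 to 381 and 421 to 539 CPM in pre-commitment sgStat5 and control cells. Myeloid and dendritic markers (12 genes) summed to 14.8 to 26.4 and 11.5 to 21.9 CPM after commitment, with Siglech at 0 in sgStat5 cells and Elane at 0 in control cells, against 77.2 to 102 CPM in pre-commitment sgStat5 cells and 57.7 to 58.4 CPM in pre-commitment control cells, where none was at 0. Mast, megakaryocyte and erythroid markers (10 genes) summed to 390 to 512 CPM in post-commitment sgStat5 cells, with Fcer1a, Pf4 and Gp9 at 0, and to 309 to 323 CPM in post-commitment control cells, with Fcer1a and Pf4 at 0. Before commitment these sums were 692 to 990 CPM in sgStat5 cells, with Fcer1a, Pf4 and Hba-a1 at 0, and 587 to 852 CPM in control cells, with Gp9 at 0. B cell markers (10 genes) reached 17.9 CPM at most, with Ms4a1 at 0 throughout, Pax5 at 0 in all groups but pre-commitment control cells and Cd79a at 0 in pre-commitment sgStat5 cells. T progenitor markers summed to 6396 to 7562 CPM in post-commitment sgStat5 cells and 6567 to 8493 in post-commitment control cells, against 4902 to 5230 in pre-commitment sgStat5 cells and 5471 to 6351 in pre-commitment control cells. Il2ra, which encodes the CD25 used in both gates and was singled out after its values were seen, had 1374 and 1886 CPM in post-commitment sgStat5 cells against 2948 and 3075 CPM in post-commitment control cells, and 1980 and 2155 CPM in pre-commitment sgStat5 cells against 3152 and 2887 CPM in pre-commitment control cells. The other 11 T progenitor markers summed to 3250 and 2747 CPM in pre-commitment sgStat5 cells against 3200 and 2584 CPM in pre-commitment control cells, which overlap. Within the pre-commitment gate, the sums for NK and myeloid markers did not overlap between sgStat5 and control cells. Nor did that for T progenitor markers with Il2ra included. Within the post-commitment gate those for B cell and for mast, megakaryocyte and erythroid markers did not overlap. Gzmb, Cd79b and Cpa3, singled out after their values were seen, carried much of the NK, B cell and mast sums. In pre-commitment cells Gzmb had 189 and 251 CPM with sgStat5 against 316 and 394 CPM with control guides. In post-commitment cells Cpa3 had 494 and 324 CPM with sgStat5 against 315 and 233 CPM with control guides. Cd79b there had 14.6 and 7.24 CPM against 10.1 and 7.84 CPM. These sums thus do not show a shift of whole lists. The part of other cells in the results for the receptors and ligands was not tested.

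Of 16 further chains of the same receptor families, 11 were tested and Cntfr and Il22ra1 were at 0 in all 8 libraries. The lists of further genes were assembled with earlier results of these data known. In post-commitment cells 1 of the 11 was called, higher with sgStat5, against 1.71% of all genes. The blocked fit called 2 of 11, both higher, against 8.22% of all genes. The median log2 fold change was 0.55 over the 11 against -0.02 over all genes. That middle value is the one of Osmr, whose SE was 2.43 and whose libraries ran from 0.0383 to 2.19 CPM in this gate. The median thus does not show a shift of the whole list. Il12rb2, the signalling chain of the IL-12 receptor and a relative of gp130, had 79.0 and 95.4 CPM in post-commitment sgStat5 cells against 47.3 and 53.5 CPM in post-commitment control cells, a log2 fold change of 0.79 ± 0.12 (SE, adjusted p = 0.0293). Il12rb1, which pairs with it, had 69.5 and 77.2 CPM in post-commitment sgStat5 cells against 54.1 and 48.3 CPM in post-commitment control cells, at 0.52 ± 0.12 (SE, adjusted p = 0.107, 0.0164 with the block). In pre-commitment cells no chain was called in either fit, against 0.269% of all genes without the block and 2.33% with it. Of the 11, 3 had an unadjusted p below 0.05, against 6.44% of all genes. The median there, the value of Il20ra at 1.44 to 1.67 CPM, was -0.16 against -0.0001 over all genes. Between the gates, Il10rb (0.61 ± 0.23, SE, adjusted p = 0.0209 blocked and 0.169 unblocked) and Il20ra (1.64 ± 0.45, SE, adjusted p = 0.0238 blocked and 0.102 unblocked) were higher after commitment in sgStat5 cells. In control cells Il12rb2 was lower after commitment (-0.58 ± 0.12, SE, adjusted p = 0.00835 blocked and 0.189 unblocked). Across the gates the blocked fit called 22.8% of all genes in sgStat5 cells and 10.9% in control cells.

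Ligands for these receptors were mostly not detectable at this depth. Of 23 further ligands, 7 were tested, 5 reached 1 CPM in any library, and Il12b, Il19, Il22, Ifnb1, Ifna1, Ifna2 and Ifna4 had no count in any of the 8. Il6 reached 0.514 CPM at most. Ifng had 0 and 0.0717 CPM in post-commitment sgStat5 cells, 1.23 and 0.226 in post-commitment control cells, 0.270 and 0 in pre-commitment sgStat5 cells and 0.472 and 0.0321 in pre-commitment control cells. No ligand was called between sgStat5 and control cells in either edgeR fit. None had an unadjusted p below 0.05, against 12.4% of all genes in post-commitment cells and 6.44% in pre-commitment cells. After commitment in sgStat5 cells, where the blocked fit called 22.8% of all genes, Clcf1, a gp130 family cytokine, was higher (0.67 ± 0.27, SE, adjusted p = 0.0312 blocked and 0.194 unblocked). Ebi3, a subunit of IL-27, was lower (-1.79 ± 0.51, SE, adjusted p = 0.0113 blocked and 0.105 unblocked), at 0.796 and 1.76 CPM against 4.36 and 4.54 CPM before commitment. Il27, which encodes the other subunit, had 13 counts over all 8 libraries and was not tested, so no change in IL-27 is shown.

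Downstream of the receptors, the 16 kinases, STATs and inhibitors were all tested. In post-commitment cells 3 rose with sgStat5 and none fell, against 1.71% of all genes called. With the block 7 rose and none fell, against 8.22% of all genes called. Stat3, the main STAT of gp130, had 338 and 352 CPM in post-commitment sgStat5 cells against 237 and 240 CPM in post-commitment control cells, at 0.53 ± 0.08 (SE, adjusted p = 0.0216). Usp18, a feedback inhibitor at IFNAR2, had 36.8 and 30.9 CPM against 12.4 and 5.68 CPM in the same cells, at 1.91 ± 0.34 (SE, adjusted p = 0.0441). With the block Socs3, an inhibitor of gp130 signalling, rose by 1.30 ± 0.19 (SE, adjusted p = 0.00358, against 0.156 in the other fit), and Jak1, Irf9 and Stat2 rose by 0.29, 0.93 and 0.68. In pre-commitment cells the fit without the block called none of the 16, against 0.269% of all genes. Of the 16, 6 had an unadjusted p below 0.05, against 6.44% of all genes. With the block, which called 2.33% of all genes, 5 rose, among them Usp18, Socs3, Irf9 and Stat3. Socs1, an inhibitor of JAK kinases, fell by 0.89 on the log2 scale in that fit (adjusted p = 0.0168). The median over the 16 was 0.23 in post-commitment cells, where that of all genes was -0.02, and 0.12 in pre-commitment cells, where it was -0.0001. Between the gates, Socs1 was the only one of the 16 called without the block, higher after commitment in sgStat5 cells (1.06 ± 0.17, SE, adjusted p = 0.0486). That fit called 0.973% of all genes in sgStat5 cells and 0.0145% in control cells.

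The 20 interferon response genes were also listed with earlier results of these data known. Of them, 9 rose and none fell with sgStat5 in post-commitment cells, against 1.71% of all genes called. With the block 17 rose, against 3.72% of all genes called higher and 8.22% called in either direction. The median log2 fold change was 1.24 against -0.02 over all genes. In pre-commitment cells 5 rose and none fell, against 0.269% of all genes called. With the block 16 rose, against 2.33% of all genes called, and the median was 1.18 against -0.0001 over all genes. Gbp2, a guanylate-binding protein gene, had 199 and 301 CPM in post-commitment sgStat5 cells against 42.4 and 42.9 CPM in post-commitment control cells, at 2.55 ± 0.38 (SE, adjusted p = 0.0259). Irf1, a transcription factor switched on by interferons, had 284 and 295 CPM against 127 and 123 CPM in the same cells, at 1.22 ± 0.08 (SE, adjusted p = 0.00451). In pre-commitment cells Irf1 had 164 and 175 CPM with sgStat5 against 101 and 109 CPM with control guides, at 0.69 ± 0.08 (SE, adjusted p = 0.0308). The blocked fit called both genes in both gates. Irgm1, an immunity-related GTPase gene, had 214 and 246 CPM in post-commitment sgStat5 cells against 86.8 and 79.4 CPM in post-commitment control cells, at 1.47 ± 0.12 (SE, adjusted p = 0.00451), and rose by 1.21 ± 0.12 in pre-commitment cells (SE, adjusted p = 0.0210). Ifi47, a further GTPase gene induced by interferon gamma, had 263 and 268 CPM against 126 and 124 CPM in the same post-commitment cells, at 1.09 ± 0.08 (SE, adjusted p = 0.00451), and rose by 0.79 ± 0.08 in pre-commitment cells (SE, adjusted p = 0.0210). In both genes every sgStat5 library lay above the control libraries of its gate. Nlrc5, whose product switches on class I MHC genes, had 224 and 177 CPM against 63.0 and 69.8 CPM in post-commitment cells, at 1.59 ± 0.15 (SE, adjusted p = 0.00498), and rose by 1.38 ± 0.15 in pre-commitment cells (SE, adjusted p = 0.0213). Tap1, a subunit of the peptide transporter, had 394 and 333 CPM against 184 and 162 CPM in post-commitment cells, at 1.07 ± 0.11 (SE, adjusted p = 0.00702), and had a log2 fold change of 0.61 ± 0.11 in pre-commitment cells (SE, adjusted p = 0.127, 0.00570 with the block). Gbp5, related to Gbp2, rose by 1.44 ± 0.16 in post-commitment cells (SE, adjusted p = 0.00755) and by 1.24 ± 0.16 in pre-commitment cells (SE, adjusted p = 0.0411). Iigp1, also an immunity-related GTPase, had the largest fold change of the list, 3.84 ± 0.79 in post-commitment cells (SE, adjusted p = 0.0776, 0.000190 with the block). In these libraries the response genes were thus higher with sgStat5 in cells in which Ifngr1 was lower, a call made with the block only. Ifnar1 and Ifnar2 had positive fold changes in both gates that passed the threshold in neither fit. Between the gates 6 of the 20 were higher after commitment in sgStat5 cells, against 0.973% of all genes called, and 17 with the block, against 22.8%. In control cells none was called, against 0.0145% of all genes, with 13 at an unadjusted p below 0.05, against 14.9%. With the block 11 were higher there, against 10.9% of all genes called. The medians were 0.93 in sgStat5 cells and 0.78 in control cells, against 0.03 over all genes in both arms.

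Of 14 genes known to respond to STAT3, 2 rose and 1 fell with sgStat5 in post-commitment cells, against 1.71% of all genes called. With the block a further 2 rose (4 higher and 1 lower in all), against 8.22% of all genes called, and the median was 0.25. Bcl3, an NF-kappaB cofactor, had 24.3 and 30.0 CPM in post-commitment sgStat5 cells against 6.66 and 3.71 CPM in post-commitment control cells, at 2.39 ± 0.33 (SE, adjusted p = 0.0194). Icam1, an adhesion molecule that interferon gamma also induces, rose by 1.08 ± 0.14 (SE, adjusted p = 0.0160), and Pim1, a kinase gene that STAT5 also controls, fell by 0.57 on the log2 scale (adjusted p = 0.0472). Maf, a transcription factor gene, rose with the block, with 13.8 and 24.3 CPM in post-commitment sgStat5 cells against 9.04 and 10.8 CPM in post-commitment control cells, at 0.94 ± 0.31 (SE, adjusted p = 0.282, 0.0295 with the block). In pre-commitment cells none was called without the block, against 0.269% of all genes, with 3 at an unadjusted p below 0.05, against 6.44%. With the block Bcl3 and Socs3 rose, against 2.33% of all genes called, and the median was 0.02. Between the gates no gene of the list was called without the block, against 0.973% of all genes in sgStat5 cells and 0.0145% in control cells. An unadjusted p below 0.05 was seen for 6 in sgStat5 cells, against 24.0% of all genes, and 5 in control cells, against 14.9%. With the block 4 were higher and 2 lower after commitment in sgStat5 cells, against 22.8% of all genes called. In control cells 1 was higher and 2 lower, against 10.9%. In sgStat5 cells Maf, Batf and Hif1a, all transcription factor genes, were higher, at 1.25 ± 0.32 (SE, adjusted p = 0.00477 with the block), 0.59 ± 0.20 (SE, 0.0394) and 0.59 ± 0.18 (SE, 0.00837). Myc, a growth regulator, was lower in control cells, at -0.38 ± 0.16 (SE, adjusted p = 0.0478 with the block). Socs3 is in this list and in that of inhibitors.

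**Figure D5:**
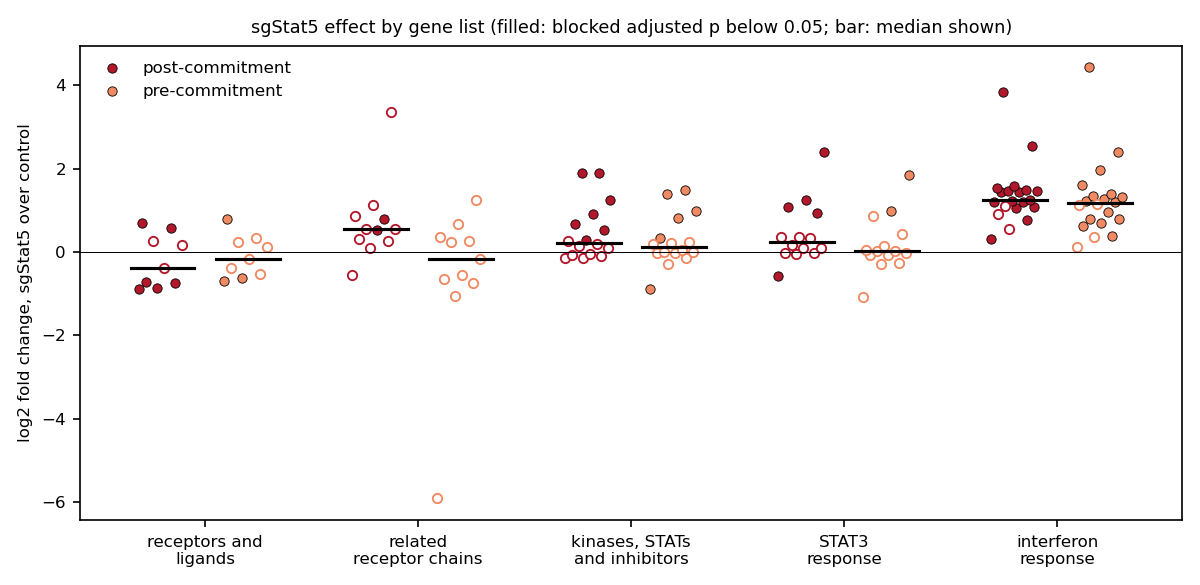
Log2 fold change of sgStat5 over control for each tested gene of 5 lists, post-commitment cells left of pre-commitment cells within each list (9 receptors and ligands without Il6ra, 11 related receptor chains, 16 kinases, STATs and inhibitors, 14 STAT3 response genes and 20 interferon response genes). Filled points passed an adjusted p of 0.05 in the blocked fit and bars are medians of the points shown. The interferon response points all lie above 0, the receptors and ligands on both sides of it.

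The genes whose profile over the 8 libraries was most like that of each called gene were ranked by the root mean square difference of centred log2 CPM. For Ifngr1, whose own profile had an SD of 0.80, they were Agpat4 at 0.162 and Gab3 at 0.191. For Il6st (SD 0.70) they were Gpr18 at 0.165 and Dnajc28 at 0.170, and for Il27ra (SD 0.63) A630033H20Rik at 0.0985 and Gtpbp2 at 0.142. The ligand Lif (SD 0.40) was closest to Hip1 at 0.103 and Slc29a1 at 0.126, and Osm (SD 0.40) to Rhoq at 0.112 and Fam69b at 0.134. Il10ra (SD 0.34) was closest to Dtnbp1 at 0.110 and Oxct1 at 0.111. Among the other interferon chains, Ifngr2 (SD 0.43) was closest to Mgat4a and Fam102a, both at 0.123. Ifnar1 (SD 0.39) was closest to the cytokine gene Il16 at 0.0581 and to Bbs9 at 0.0656, and Ifnar2 (SD 0.28) to Fam160b1 at 0.0364 and Ttc14 at 0.0426. No gene of the set was among the 2 closest to another.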

How the data were processed

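RNA was measured in 8 libraries. The submitters' processing notes list the build mm10 (GRCm38) and the tools RSEM (version 1.2.25), STAR (2.4.0) and bcl2fastq (1.8.4). Per the file headers, the authors' deposited counts are unadjusted HOMER tags on the exons of a single RefSeq transcript for each gene, and a companion table holds the authors' deposited FPKM values from the same program. For Ifnar2, Il6ra and Lif the tables use different transcripts. No strand option is named, so reads of a gene on the other strand can be included. The members and lists were chosen with earlier results of these data known. The counts went into edgeR 4.0.16 (R 4.3.3) with filterByExpr, TMM and its two-sided quasi-likelihood F-test, fitting 1 mean per group, in 5 comparisons at a threshold of 0.05 after Benjamini-Hochberg adjustment over all genes tested. Standard errors are the log2 fold change over the square root of F, and 95% intervals use the same fit. Replicate numbers come from the labels and were taken as pairs, since every correlation of same-numbered deviations was 0.421 or more. Alternatives were DESeq2 1.42.0, its size factors, 2 other filters, limma 3.58.1 on log2(FPKM + 1), fewer libraries, and single-library omissions, which assume that a lone library varies like the other groups. Every member is named. A list gene is named if called in either fit of any comparison (at most 8 per list, by the smallest adjusted p of either fit for sgStat5 against control), as are partner chains, and marker genes singled out after their values were seen are named as such; 1 gene of the list of kinases, STATs and inhibitors is not reported here. Protein sequences were not used here.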

Additional observations from a re-analysis of the deposited data

How the results depend on the processing

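Of 332 log2 fold changes of the 10 genes under alternatives other than single-library omissions, 331 had the same sign as reported. The other was Il6ra after commitment in sgStat5 cells, at 0.26 with the replicate block. The number of the 10 genes called moved with the test. For sgStat5 in post-commitment cells it was 0 as reported, 2 with no filter, 4 with DESeq2 and 6 with the replicate block. In pre-commitment cells it was 0, and 3 with DESeq2 or the replicate block. Across commitment it was 3 in sgStat5 cells, with 6 by DESeq2 or the replicate block and 0 when only the 4 libraries of the comparison were fitted. In control cells it was 0, with 2 with no filter, 4 with DESeq2 and 5 with the replicate block.

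Counts over all genes moved likewise. For sgStat5 in post-commitment cells 235 genes were called, with 629 by DESeq2, 1132 with the replicate block and 4 when only the 4 libraries were fitted. In pre-commitment cells 37 were called, with 114 under no filter, 247 by DESeq2, 321 with the replicate block and 3 with only the 4 libraries. The difference of effects gave 0, and 2 by DESeq2. Across commitment 134 were called in sgStat5 cells, with 760 under no filter, 231 under a filter of 5 CPM, 1684 by DESeq2, 3144 with the replicate block and 2 with only the 4 libraries. In control cells 2 were called, with 83 under no filter, 578 by DESeq2, 1507 with the replicate block, and 0 with only the 4 libraries or with limma on FPKM. DESeq2 size factors in edgeR moved none of these counts by more than 1.5 times. The cause of these shifts was not tested.

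Leaving out 1 library at a time, without or with the block, gave 0 to 6 of the 10 genes for sgStat5 in post-commitment cells, 0 to 3 in pre-commitment cells, 0 to 6 across commitment in sgStat5 cells and 0 to 7 in control cells. Over all genes the ranges were 63 to 1242, 0 to 347, 0 to 3060 and 0 to 1817, and 0 to 6 for the difference of effects. Log2 fold changes that changed sign in such fits ranged from -0.092 to 0.46 (Ifnar1, sgStat5 in post-commitment cells), -0.021 to 0.27 (Ifnar1, pre-commitment), -6.77 to 1.08 (Il6ra, pre-commitment), -0.36 to 0.15 (Osm, commitment in control cells), -0.093 to 0.42 (Il10ra, the same), -0.45 to 0.059 (Il10ra, commitment in sgStat5 cells) and -2.66 to 5.98 (Il6ra, the same). For the difference of effects they ranged from -0.21 to 0.34 (Ifnar1), -0.14 to 0.21 (Ifnar2), -0.30 to 0.12 (Lif) and -0.42 to 0.089 (Ifngr1). In all, 760 of 800 such values had the same sign as reported. Counts for the lists of further genes were not recomputed. With 2 libraries per group each gene has 4 residual degrees of freedom without the block and 3 with it. To these the quasi-likelihood fit adds degrees of freedom drawn from the spread of all genes.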

Other observations

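Replicates of the post-commitment gate differed in several receptor chains alike in both arms. Replicate 2 over replicate 1, on the log2 scale, was -0.48 in sgStat5 cells and -0.57 in control cells for Ifnar1, -0.33 and -0.54 for Ifngr1, -0.42 and -0.24 for Il6st, and -0.49 and -0.29 for Il27ra. For Il10ra it was 0.51 in sgStat5 cells and 0.32 in control cells, the opposite sign. In the pre-commitment gate the same ratio lay between -0.19 and 0.14 for these first 4 genes, and for Il10ra it was 0.30 in sgStat5 cells and -0.13 in control cells. Bcl11b was also lower in replicate 2, in all 4 groups. Within each same-numbered pair, the sgStat5 library lay on the same side of its control library in both pairs of both gates for the 9 genes other than Il6ra. The share of all genes that do so was not counted, so this does not set these genes apart. Ifnar1, Ifnar2 and Ifngr2 are among them and were called between sgStat5 and control cells in neither fit.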
